A study of Mus musculus with 19 samples.

Results

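The genes of CTCF and of the cohesin complex were followed across the RNA-seq samples of the Wiz MommeD30 study. The 10 genes, Ctcf, Rad21, Smc1a, Smc3, Stag1, Stag2, Nipbl, Wapl, Pds5a and Pds5b, were matched by symbol to Ensembl identifiers and are 10 of the 41388 genes counted. They were taken by name, and no measured value entered the rule. The samples came from FVB mice (FVB/NJ in the study's methods) and were of 2 genotypes, Wiz +/+ and Wiz MommeD30/+, the latter heterozygous for a frame-shifting single-base deletion in Wiz that arose in an ENU mutagenesis screen. Whole brains were taken 13.5 days post coitum (E13.5) from male embryos (3 per genotype) and from female embryos (2 per genotype). Cerebellum was taken 56 days post partum from male mice (3 per genotype). The strain was made on a background carrying a multicopy GFP transgene under erythroid control sequences. The ChIP-seq samples were not analysed here.

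Cohesin is a ring made of the SMC proteins Smc1a and Smc3 and the kleisin Rad21, to which one of the alternative subunits Stag1 or Stag2 is bound. Nipbl loads the ring onto chromatin and drives the extrusion of loops, Wapl releases it, and Pds5a and Pds5b bind the ring and regulate both its release and the acetylation of Smc3. CTCF is a zinc finger protein that binds insulators and halts cohesin, and together they fold chromosomes into loops and domains, including those at clustered neuronal genes. Cohesin also holds sister chromatids together until division, so dividing and post-mitotic cells use it for different tasks. The comparisons asked how these genes were expressed in embryonic brain and in cerebellum, because the study described Wiz binding at CTCF sites, and whether they changed when Wiz was reduced.

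The promoters of Pds5a, Pds5b and Smc3, which were among the 4 genes called between the tissues, and that of Ctcf are shown as the regulatory sequence beside those genes. RefSeq promoter windows, from 250 bases before to 50 bases after the start, were found for 7 of the 10 genes (Ctcf, Smc1a, Smc3, Stag1, Wapl, Pds5a and Pds5b), and not for Nipbl, the other gene called. All 7 were rich in G and C, at 58.3% to 80.3% against a median of 52.7% over 32851 promoters. The sequences below are from GRCm38.p6, run 5′ to 3′ on the strand of the gene, end before the first annotated base of the gene, and have in capitals the matches to an E2F core (TTGGCGC) and to a CTCF core (CC, any 3 bases, AG, any 2 bases, then GGC), both searched on either strand. They lie at chr5:65698274-65698486 (minus strand), chr5:150673577-150673738 (plus), chr19:53600146-53600395 (plus) and chr8:105636288-105636537 (plus). The first 3 windows held no other annotated gene, and the Ctcf window lay over the genes Agrp and Gm5914.
Pds5a: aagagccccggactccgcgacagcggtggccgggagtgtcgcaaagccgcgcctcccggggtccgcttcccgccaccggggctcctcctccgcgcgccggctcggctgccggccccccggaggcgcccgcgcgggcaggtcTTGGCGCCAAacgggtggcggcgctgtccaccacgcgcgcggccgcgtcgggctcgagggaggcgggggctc
Pds5b: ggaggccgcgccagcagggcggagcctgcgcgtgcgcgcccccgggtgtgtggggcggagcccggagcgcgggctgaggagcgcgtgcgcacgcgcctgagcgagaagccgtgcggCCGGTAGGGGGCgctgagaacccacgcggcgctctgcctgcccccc
Smc3: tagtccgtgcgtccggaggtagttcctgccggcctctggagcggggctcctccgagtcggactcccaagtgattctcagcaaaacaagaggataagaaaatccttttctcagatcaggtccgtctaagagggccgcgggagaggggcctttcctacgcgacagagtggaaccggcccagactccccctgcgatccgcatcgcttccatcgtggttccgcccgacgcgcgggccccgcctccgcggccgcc
Ctcf: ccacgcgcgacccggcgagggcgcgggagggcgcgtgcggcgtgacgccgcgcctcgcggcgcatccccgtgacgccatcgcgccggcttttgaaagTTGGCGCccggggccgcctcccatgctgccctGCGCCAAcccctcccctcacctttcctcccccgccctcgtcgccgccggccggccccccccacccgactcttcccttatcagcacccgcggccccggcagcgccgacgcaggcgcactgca
The E2F core, bound by factors of the cell cycle, was present in 3 of the 7 windows (Ctcf, Pds5a and Pds5b) and in 2.45% of all promoters. In Pds5a the matches on both strands overlap each other, and the Pds5b match lies outside the stretch printed. The CTCF core was found in 1 of the 7 windows, at bases -134 to -123 from the start of Pds5b, and in 8.61% of all promoters. The Sp1 box GGGCGG was present in 7 of 7 windows against 35.7% of promoters, the ETS core CGGAAG in 5 against 16.9%, and the CCAAT box in 4 against 37.4%. The promoters behind these shares were not matched to the 7 windows in G and C, and 33.7% of them reached the lowest content of the 7. These are matches of letters, which were described and not tested.

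In GRCm38, the genes of the ring were Smc1a (ENSMUSG00000041133) at chrX:152016428-152062694, Smc3 (ENSMUSG00000024974) at chr19:53600398-53645833 and Rad21 (ENSMUSG00000022314) at chr15:51962240-51991747, with Stag1 (ENSMUSG00000037286) at chr9:100597798-100959375 and Stag2 (ENSMUSG00000025862) at chrX:42149317-42277185. The regulators were Nipbl (ENSMUSG00000022141) at chr15:8290617-8444463, Wapl (ENSMUSG00000041408) at chr14:34673928-34747983, Pds5a (ENSMUSG00000029202) at chr5:65605721-65698273 and Pds5b (ENSMUSG00000034021) at chr5:150673739-150810690. Ctcf (ENSMUSG00000005698) at chr8:105636568-105682922 completed the set. Smc1a and Stag2 are on the X chromosome, and Nipbl, Rad21 and Pds5a are on the minus strand. Reads were counted over the exons of each gene.

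Libraries held 16386029 to 50459755 counted reads, and the smallest was male Wiz +/+ brain 2. The reduced gene matched the labels: Wiz stood at 174 to 189 CPM (read counts relative to library size, TMM-scaled) in the male Wiz +/+ brains and at 112 to 119 CPM in the male Wiz MommeD30/+ brains, and at 104 to 105 CPM against 72.0 to 75.0 CPM in cerebellum. Marker lists of 4 genes were summed. In cerebellum against the brains, granule cell genes summed to 4237 to 4475 against 42.4 to 58.9 CPM, Purkinje cell genes to 2767 to 2948 against 16.5 to 26.0 CPM and oligodendrocyte genes to 3980 to 4573 against 52.0 to 65.9 CPM. Genes of immature neurons summed to 410 to 483 against 6163 to 6526 CPM. Of the neural progenitor genes (171 to 196 against 543 to 735 CPM), 3 were called lower and Pax6 higher in Wiz +/+ cerebellum. Choroid plexus genes summed to 1024 to 2167 against 198 to 434 CPM, microglia genes to 54.9 to 58.6 against 39.7 to 51.2 CPM and endothelial genes to 70.4 to 80.2 against 210 to 240 CPM. The 10 CTCF and cohesin genes had at least 1674 reads in every sample, passed the filter on low counts in every comparison, and took 0.171% to 0.199% of the reads of a brain and 0.115% to 0.123% of those of a cerebellum.

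Levels between genes were compared per length, as CPM per kb of annotated exons, in Wiz +/+ males. Rad21, the kleisin, was the highest of the 10 in both tissues, at 73.3 ± 2.23 in E13.5 brain and 52.3 ± 0.268 in cerebellum (mean ± SD, n = 3). In brain it was followed by Smc1a at 36.1 ± 1.26, Smc3 at 35.0 ± 1.31 and Ctcf at 34.3 ± 0.441, whose ranges overlapped one another in that order. Then came Pds5b at 22.8 ± 0.659 and Nipbl at 21.9 ± 0.831, Stag2 at 18.4 ± 0.944 and Wapl at 17.9 ± 0.594, again with overlapping ranges within each pair. Stag1 at 10.7 ± 0.382 and Pds5a at 6.61 ± 0.314 were the lowest. In cerebellum Smc1a (28.1 ± 0.448) and Ctcf (25.3 ± 0.0786) stood apart from each other, Smc3 (19.6 ± 0.579) fell in with Stag2 (18.8 ± 0.714), and Wapl (15.9 ± 0.244) and Pds5b (14.5 ± 0.467) lay above Nipbl (11.8 ± 0.880). Stag1 (8.45 ± 0.285) and Pds5a (3.38 ± 0.195) were again the lowest on this scale. Stag2 thus went from rank 7 to rank 5 and Nipbl from rank 6 to rank 8. Pds5a has 19335 bases of annotated exons, and with the longest transcript as the length it stayed at rank 10. With that length Smc3 moved below Ctcf in brain and below Stag2 in cerebellum, Stag2 moved above Nipbl in brain and Pds5b above Wapl in cerebellum. Stag1 moved to rank 8 in both tissues, above Wapl in brain (20.3 against 18.6) and above Nipbl in cerebellum (16.1 against 11.8).

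**Figure D1:**
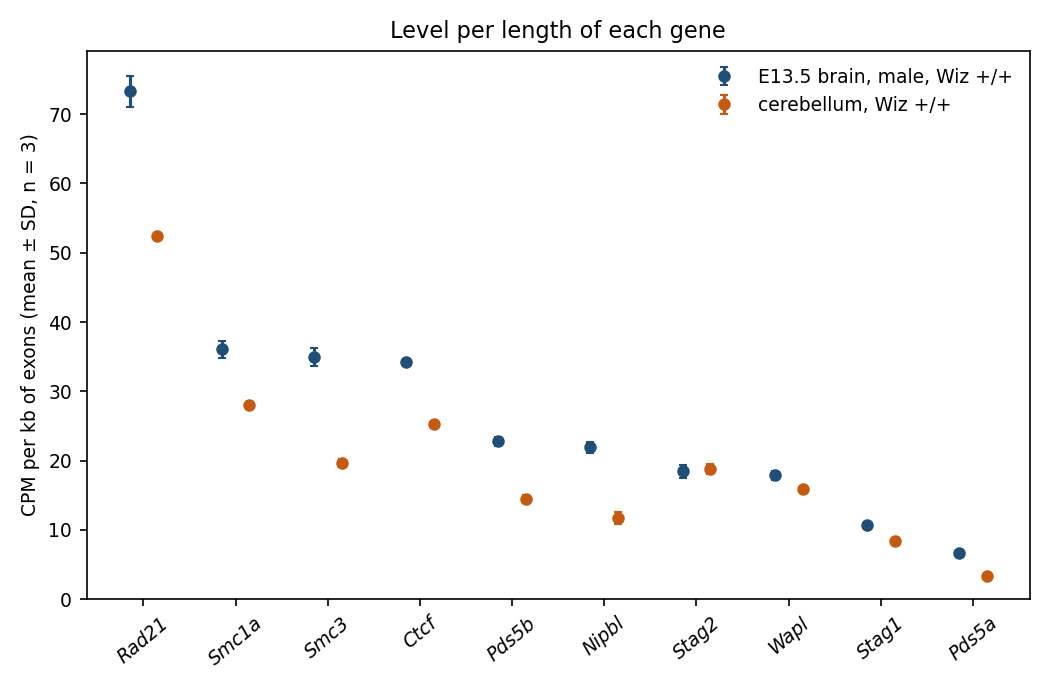
Level of each gene as CPM per kb of annotated exons in male E13.5 brain and in cerebellum of Wiz +/+ mice; points are means and bars are SD over 3 samples. Rad21 was highest in both tissues (73.3 and 52.3), Pds5a was lowest (6.61 and 3.38), and Stag2 had nearly the same value in each (18.4 and 18.8).

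Most of the 10 genes were lower in cerebellum than in E13.5 brain, and they were lowered unequally. A gene was called where its adjusted p did not exceed 0.05 and its fold change lay below 0.7 or above 1.3 (edgeR, p-values adjusted over all genes). By this rule 4 of 10 genes fell in Wiz +/+ males, Pds5a, Nipbl, Smc3 and Pds5b, and 0 rose. Of all 16840 genes tested 32.9% were called lower and 36.4% higher, so the count of members that fell was near the background. With the adjusted p alone, 9 of the 10 were lower, against 43.6% of all genes, and Stag2 was the exception. The median log2 fold change was -0.46 over the 10 genes and -0.02 over all genes. The tissues also differ in age and brain region, and these cannot be told apart. The labels give no sequencing date or run, for the tissues or for the sexes. In whole tissue, fewer cells expressing a gene and less RNA per cell cannot be told apart either.

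Among the regulators, Pds5a stood at 127, 123 and 134 CPM in the 3 male Wiz +/+ brains and at 61.1, 68.4 and 66.5 CPM in the cerebellums. The groups did not overlap, and Pds5a fell by 0.97 on the log2 scale (SE 0.0508, edgeR adjusted p = 6.86e-11), to 0.512 of its brain level. Its paralog Pds5b went from 232, 220 and 221 CPM to 142, 148 and 139 CPM, and so fell by 36.2% (log2 fold change -0.65, SE 0.0405, edgeR adjusted p = 5.82e-10). Nipbl, the loader, had 208, 198 and 213 CPM in brain. In cerebellum it had 104, 120 and 109 CPM, with a log2 fold change of -0.89 (SE 0.0526, edgeR adjusted p = 2.89e-10). Wapl, which acts against Nipbl by releasing cohesin, was close between the tissues, at 117, 115 and 123 CPM against 104, 106 and 107 CPM. Its groups did not overlap, but it fell by 10.7% (log2 fold change -0.16, SE 0.0396, edgeR adjusted p = 0.00136), which was inside the fold limits.

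Of the ring subunits, Smc3 fell most, from 193, 187 and 202 CPM to 110, 111 and 105 CPM (log2 fold change -0.83, SE 0.0419, edgeR adjusted p = 3.92e-11). Its partner Smc1a fell less, from 201, 208 and 216 CPM to 160, 165 and 161 CPM (log2 fold change -0.36). Rad21, which closes the ring, fell by 0.48 on the log2 scale, from 300, 311 and 319 CPM to 222, 222 and 220 CPM. Smc1a and Rad21 passed the adjusted p and stayed inside the fold limits. Stag1 behaved like Smc1a, with 126, 121 and 130 CPM in brain and 95.7, 102 and 101 CPM in cerebellum (log2 fold change -0.33). Stag2 had 156, 144 and 158 CPM in brain and 149, 159 and 159 CPM in cerebellum. These groups overlapped, and the difference was +0.03 on the log2 scale (SE 0.0462, edgeR adjusted p = 0.566), with a 95% interval from -4.75% to +9.27%. Ctcf had 167, 164 and 168 CPM in brain and 122, 123 and 123 CPM in cerebellum, and fell by 26.1% (log2 fold change -0.44, SE 0.0356, edgeR adjusted p = 1.50e-08), again inside the fold limits.

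**Figure D2:**
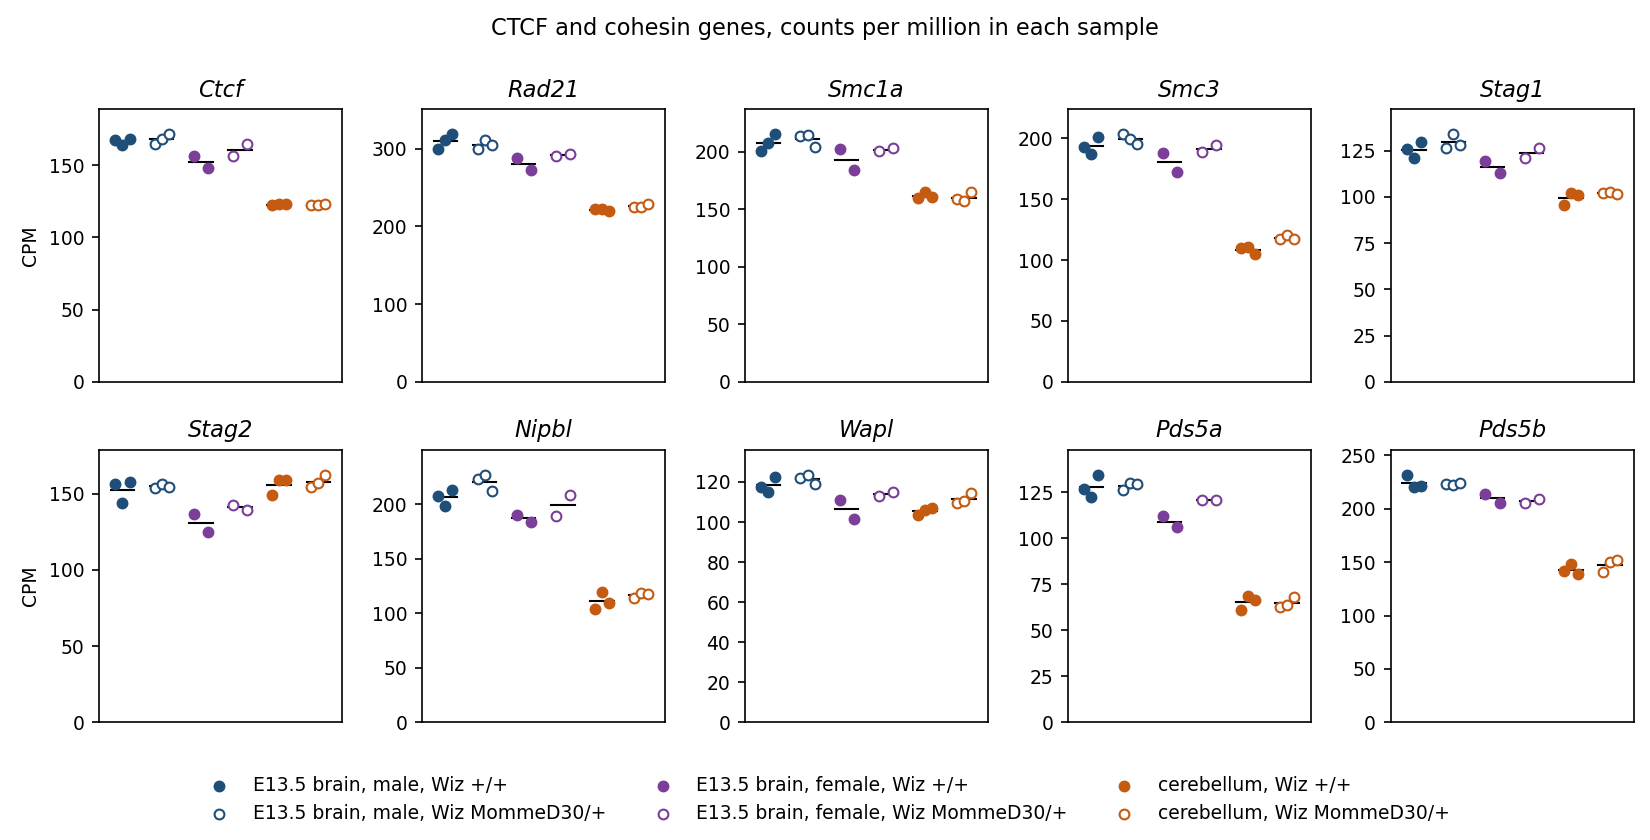
CPM of the 10 genes in each of the 16 samples, with each panel starting at 0; filled points are Wiz +/+, open points Wiz MommeD30/+, and black lines are group means. The cerebellum points lie below all male brain points for 9 genes and overlap them for Stag2.

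The same comparison in Wiz MommeD30/+ males rested on other animals and gave 4 of 10 genes called lower, again Pds5a (-0.96), Nipbl (-0.89), Smc3 (-0.73) and Pds5b (-0.57 on the log2 scale), against 33% of 16967 genes. By the adjusted p alone 9 of 10 were lower, against 44.1% of all genes. Stag2 differed by +0.05 (SE 0.0259, edgeR adjusted p = 0.0699). In both genotypes the cerebellum values of 9 genes lay wholly below those of the male brains, which held for 44.1% of all genes in Wiz +/+ and for 45.4% in Wiz MommeD30/+. With libraries scaled by total counts alone, the median of all genes shifted from -0.02 to -0.23 in Wiz +/+ and to -0.24 in Wiz MommeD30/+. Stag2 then fell by 0.18 (edgeR adjusted p = 0.000918) and 0.17 (edgeR adjusted p = 2.59e-05), and 8 of the 10 genes were called lower in each genotype.

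**Figure D3:**
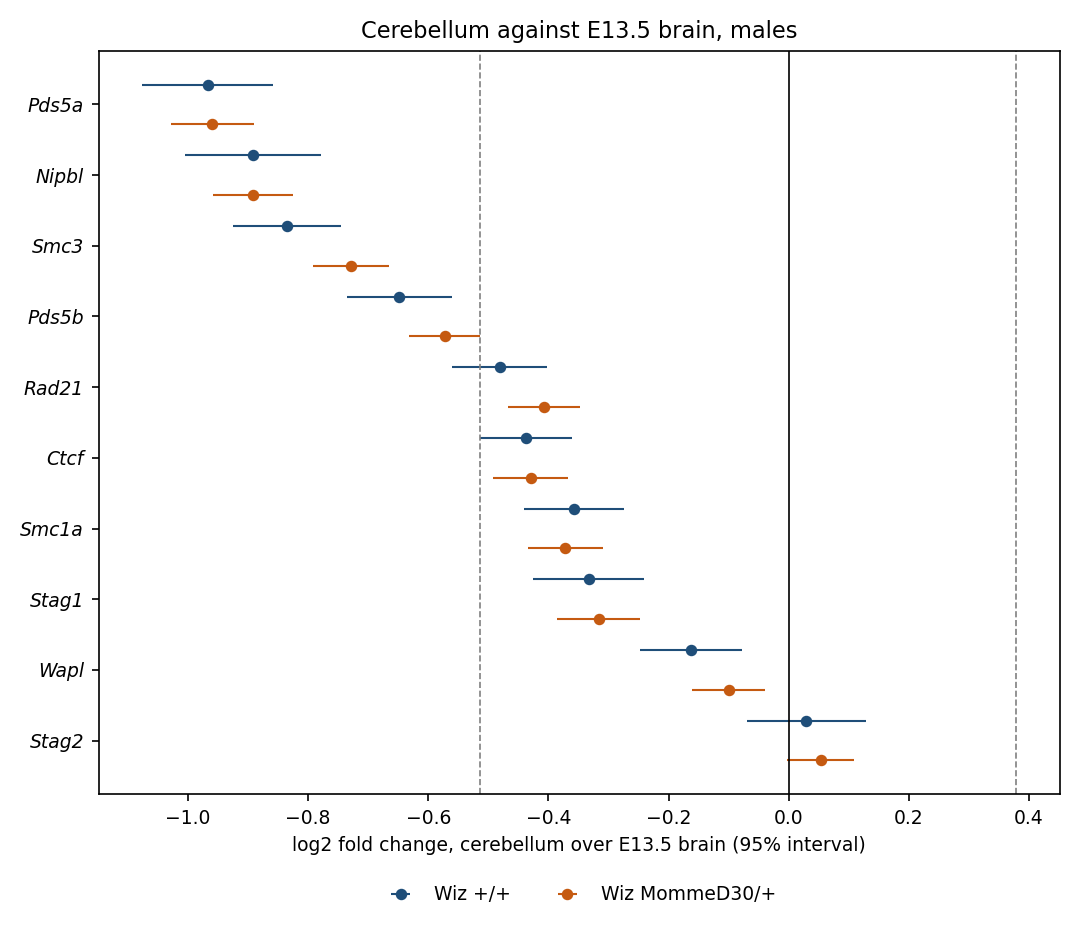
Log2 fold change of cerebellum over E13.5 brain in males of each genotype, with 95% intervals; dashed lines mark the fold limits of 0.7 and 1.3. Pds5a, Nipbl, Smc3 and Pds5b lie beyond the lower limit in both genotypes, and Stag2 lies at +0.03 and +0.05.

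Because each ratio of partner genes is taken within a sample, it does not depend on how libraries were scaled. Over the 12 males, 5 ratios of CPM per kb were compared by a two-sided exact permutation test. Stag2 over Stag1 was 1.72 in brain (1.66 to 1.76, n = 6) and 2.21 in cerebellum (2.15 to 2.28, n = 6). Pds5a over Pds5b went from 0.291 to 0.228 and Nipbl over Wapl from 1.25 to 0.738. The ratio of Smc3 to Smc1a, which sit together in the ring, went from 0.978 to 0.733. Rad21 over Smc3 went from 2.05 to 2.59. None of the 5 ratios overlapped between the tissues. Each gave an exact permutation p of 0.00216, the smallest that 6 against 6 allows, and the same value after adjustment over the 5. How often pairs of other genes separate in this way was not counted. In Wiz +/+ males 32.9% of all genes were called lower and 36.4% higher between the tissues, so the separation is not shown to be particular to these pairs. The largest shift was that of Nipbl over Wapl, by -0.76 on the log2 scale, from 0.32 ± 0.0375 to -0.44 ± 0.0637 (SD, n = 6). The ratio itself is one of transcripts. A length taken from the longest transcript changed the level of Stag2 over Stag1 to 1.21 and 1.56. It changed that of Pds5a over Pds5b to 0.475 and 0.372. The shifts between tissues stay the same by construction, because the length of a gene cancels from them. Female brains were outside this test and entered only an alternative with all 16 samples. They had 1.57 to 1.68 for Stag2 over Stag1 and 1.18 to 1.27 for Nipbl over Wapl, and so lay on the side of the male brains.

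**Figure D4:**
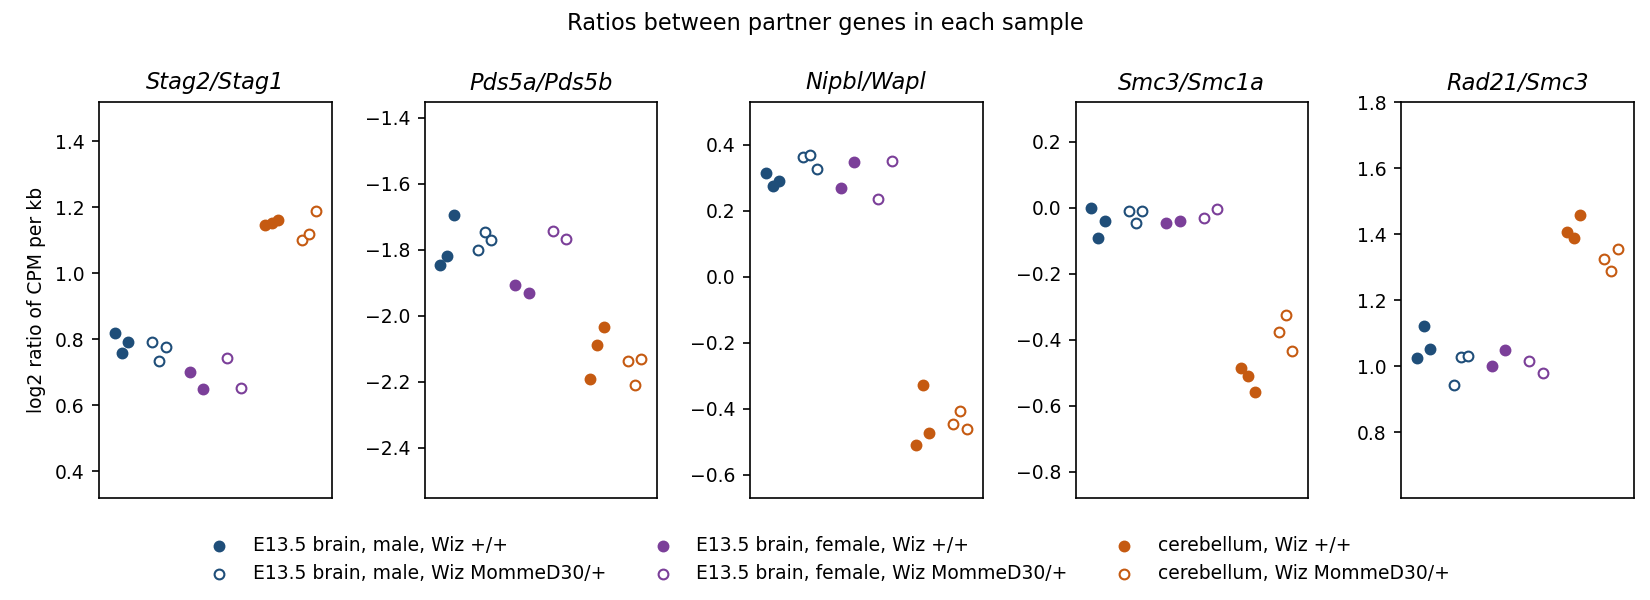
Log2 ratio of CPM per kb for 5 pairs of partner genes in each of the 16 samples, each panel spanning the same range on the log2 scale; filled points are Wiz +/+ and open points Wiz MommeD30/+. The 6 cerebellum points are apart from the 6 male brain points in each panel, above them for Stag2/Stag1 and Rad21/Smc3 and below them for the others.

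Other genes of these pathways were counted by the same rule, by which 32.9% of all genes were called lower and 36.4% higher. Of 13 cohesin regulators, 10 were called lower and 1 higher in Wiz +/+ males, with a median log2 fold change of -4.46. Cdca5 (sororin, which protects cohesion in dividing cells) went from 15.4 to 0.110 CPM and Esco2, which acetylates Smc3 during replication, from 18.8 to 0.169 CPM. Hdac8, the deacetylase that recycles Smc3, was the 1 called higher, from 11.97 to 25.96 CPM (log2 fold change +1.12, SE 0.0652, edgeR adjusted p = 2.56e-10). Esco1 (+0.20) and Mau2 (+0.08), the partner of Nipbl, were higher by the adjusted p alone. Of 8 condensin subunits, 6 were called lower (median -2.78), led by Ncapg at -7.77 and Ncaph at -5.68. Of 6 genes of the Smc5/6 complex, which acts in DNA repair, 2 were called lower, Nsmce1 (-1.64) and Smc5 (-0.95), a share like that of all genes, with a median of -0.49. Of 10 genes for factors that act at CTCF sites, 7 were called lower and 1 higher (median -0.87), with Top2b (topoisomerase II beta) at -1.53, Adnp at -1.31 and the RNA helicase Ddx5 at +0.49. Adnp lies over another annotated gene, Gm20716, and its count is uncertain for that reason.

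The germline counterparts were low. Of 5, Ctcfl, Rec8 and Stag3 passed the filter, and Smc1b and Rad21l, with mean levels of at most 0.155 and 0.169 CPM in any group, did not. Rec8, the meiotic kleisin, rose from 0.395 to 3.01 CPM between brain and cerebellum (log2 fold change +3.05). Stag3, the meiotic Stag, fell from 16.6 to 3.34 CPM (-2.32). Beside these changes, 10 of 10 proliferation genes were called lower in cerebellum (median -5.50), and their sum was 1276 to 1451 CPM in male brain and 78.3 to 90.1 CPM in cerebellum, with none of them at 0. Their part in the lower level of the 10 genes was not tested.

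Patterns across samples were also compared for Ctcf and Rad21, by the root mean square difference of centred log2 CPM over the 16 samples. Of 17337 genes, the 3 closest to Ctcf were Pum2 (0.0250), Rad21 (0.0284) and Brd7 (0.0287). The 3 closest to Rad21 were Brd7 (0.0221), Pum2 (0.0270) and Ctcf (0.0284). Pum2, an RNA-binding protein, and Brd7, a bromodomain protein, differed between the tissues by -0.45 and -0.44 on the log2 scale. The samples behind this measure share the tissue difference, and the likeness was not tested.

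Loss of 1 Wiz allele moved none of the 10 genes past both limits. In male brain 0 of 10 were called, against 0.184% of 16848 genes, in female brain 0 against 0.111% of 17152, in brains of both sexes with sex as a covariate 0 against 0.346% of 17620, and in cerebellum 0 against 0.832% of 15979. Wiz itself was called lower by this rule in each of these brain comparisons, but not in cerebellum. There its log2 fold change was -0.50, which passed the adjusted p and stayed inside the fold limits. An unadjusted p under 0.05 was reached by 1, 1, 1 and 3 of the 10 genes, against 8.45%, 6.4%, 11.8% and 19.9% of all genes. Over both sexes the 95% intervals of all 10 genes lay between -4.51% and +11.7%, and in cerebellum between -5.75% and +15.96%. Ctcf itself had 167, 164 and 168 CPM in the male Wiz +/+ brains and 165, 168 and 172 CPM in the Wiz MommeD30/+ brains. In cerebellum it had 123, 123 and 123 CPM in Wiz MommeD30/+, and the difference from Wiz +/+ was +1.19% (95% interval -3.17% to +5.75%, edgeR adjusted p = 0.807).

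Smc3 in cerebellum was the single member with an adjusted p under the threshold, a threshold that 2.69% of all genes there passed upwards. It had 110, 111 and 105 CPM in Wiz +/+ and 118, 120 and 117 CPM in Wiz MommeD30/+. The groups did not overlap, and Smc3 was 10.4% higher in the mutant (95% interval +5.09% to +15.96%, log2 fold change +0.14, SE 0.0337, edgeR adjusted p = 0.0202), which is inside the fold limits. Whether the adjusted p passed depended on single libraries: it was 0.140 without Wiz +/+ cerebellum 3, 0.0885 without Wiz MommeD30/+ cerebellum 1 and 0.0633 without Wiz MommeD30/+ cerebellum 2. Over the 6 fits with 1 library left out, the log2 fold change of Smc3 ran from +0.118 to +0.166. Wapl came next, at 104, 106 and 107 CPM against 110, 110 and 114 CPM (+6.90%, edgeR adjusted p = 0.0835), followed by Nipbl (+6.67%, log2 fold change +0.09, edgeR adjusted p = 0.250). Without Wiz +/+ cerebellum 2 the log2 fold change of Nipbl was +0.16 (edgeR adjusted p = 0.0186), and without Wiz +/+ cerebellum 1 it was +0.04 (edgeR adjusted p = 0.645). Smc3, Wapl and Rad21 had groups that did not overlap, 3 of 10 genes, against 8.99% of all genes higher in this way. In the fit, all 10 genes had a log2 fold change above 0 in cerebellum (median +0.05), as did 48.7% of all genes, and 8 to 10 did with 1 library left out. Of 1627 genes with exons as long and levels as high, 39.8% were below 0 (median +0.02). In CPM scaled over all 16 samples, the means of Ctcf, Smc1a and Pds5a were slightly lower in Wiz MommeD30/+, at 122.66, 160.2 and 64.9 against 122.72, 161.85 and 65.3 CPM. Other markers moved with genotype in these libraries. The erythroid genes summed to 86.0 to 135 CPM in Wiz +/+ and 148 to 278 CPM in Wiz MommeD30/+, with 2 of 3 tested called higher and 1 of 4 at 0. Neural progenitor genes (183 to 196 against 171 to 179 CPM) and oligodendrocyte genes (4235 to 4573 against 3980 to 4249 CPM) had 2 of 4 genes each past the adjusted p. Immature neuron genes (456 to 483 against 410 to 446 CPM) had 1 of 4 past it. Granule cell and endothelial genes had 1 of 4 each past it, with sums that overlapped. Their part in the changes of the 10 genes was not tested. In the embryo, Nipbl had the largest change in brains of both sexes, at +6.42% (log2 fold change +0.09, SE 0.0324, edgeR adjusted p = 0.308), and 9 of 10 genes were above 0. In female brain 6 of 10 genes had groups that did not overlap, all higher in Wiz MommeD30/+, against 19.9% of all genes with 2 samples a group, and the largest was Pds5a at +0.14 (SE 0.0484, edgeR adjusted p = 0.773). The median of the 10 was +0.08, and +0.04 without female Wiz +/+ brain 2. In the same brains 0 of 10 proliferation genes and 0 of 8 condensin genes were called, with medians of +0.27 and +0.23, and the proliferation genes summed to 970 to 1216 CPM in Wiz +/+ and 1302 to 1373 CPM in Wiz MommeD30/+. Their part was not tested. In male brain 0 of 10 genes had groups that did not overlap in this direction, against 6.07%, and over both sexes 0 of 10 did, against 0.749%.

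The effect of genotype was not shown to depend on tissue or sex for any of the 10. The genotype by tissue term ranged from -0.02 for Smc1a to +0.10 for Smc3 (SE 0.0522), with a smallest adjusted p of 0.568 by edgeR, and 0 of 10 genes were called against 0.173% of 17337. The genotype by sex term ranged from -0.02 for Pds5b to +0.13 for Pds5a (SE 0.0605), with a smallest edgeR adjusted p of 0.985, and 0 of 10 were called against 0% of all genes. In male brain and in cerebellum the partner ratios moved with genotype by at most 0.14 on the log2 scale, for Smc3 over Smc1a in cerebellum. Female brains are not part of that limit. There the log2 ratio of Pds5a over Pds5b stood at -1.91 and -1.93 in Wiz +/+ and at -1.74 and -1.77 in Wiz MommeD30/+, which was not tested.

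**Figure D5:**
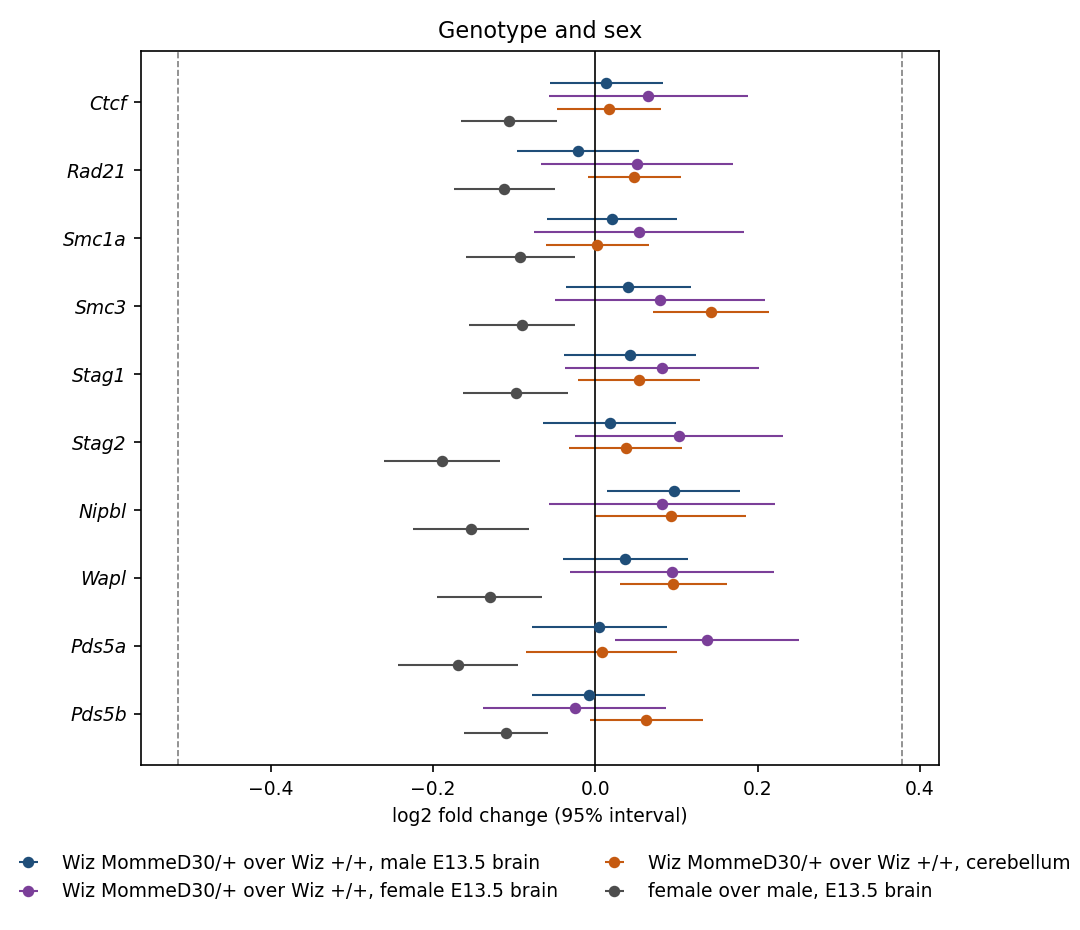
Log2 fold change of the 10 genes for genotype (Wiz MommeD30/+ over Wiz +/+) in male brain, female brain and cerebellum, and for sex (female over male) in E13.5 brain, with 95% intervals; dashed lines mark the fold limits. All points lie inside the limits, and all 10 points for sex lie below 0.

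Relative to library size, the fitted levels of all 10 genes were slightly lower in female than in male E13.5 brains, and not all of them passed the adjusted p. In the fit over the 10 brains with genotype as a covariate, log2 fold changes of female over male ran from -0.19 for Stag2 to -0.09 for Smc3, with a median of -0.11 against a median near 0 for all genes. None of the 10 passed both limits (1.46% of all genes did), and 7 of 10 had an adjusted p of at most 0.05, against 5.72% of all genes lower in this way. Stag2, which is X-linked, stood lowest relative to males, at 137, 125, 143 and 140 CPM in the 4 female brains against 144 to 158 CPM in the 6 male brains. These groups did not overlap, and Stag2 fell by 12.3% (SE 0.0334 on the log2 scale, edgeR adjusted p = 0.00726). The other X-linked member, Smc1a, was at -6.21% (edgeR adjusted p = 0.0711). Pds5a fell by 11.1% (edgeR adjusted p = 0.0116) and Nipbl fell by 10.1% (edgeR adjusted p = 0.0147). Stag2, Pds5a, Rad21 and Pds5b had groups that did not overlap, 4 of 10 against 3.46% of all genes.

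Other measures moved with sex. Female Wiz +/+ brain 2 was the lowest of the 10 brains for 9 of the 10 genes, and without it 4 of 10 genes, not 7, had an adjusted p of at most 0.05. The 10 proliferation genes summed to 970 to 1373 CPM in female and 1276 to 1451 CPM in male brains. The 4 erythroid genes summed to 1054 to 1130 CPM in female and 570 to 953 CPM in male brains, with none of these genes at 0. Microglia genes summed to 45.7 to 51.2 CPM in female and 39.7 to 44.9 CPM in male brains, without overlap, and 3 of 4 passed the adjusted p. Among 1628 genes with exons as long and levels as high as those of the 10, 66.3% were lower in females, with a median of -0.04. The part of these measures in the difference between the sexes was not tested.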

How the data were processed

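RNA from embryonic brains or cerebellums, labelled as poly(A) RNA, was sequenced as 100 bp single-end reads. The authors mapped reads to mm10 with Tophat (version 2.0.11) and extracted counts over gene exons with HTSeq (0.6.1), and deposited whole-number read counts per Ensembl gene without normalization. Counting mode and strand setting are not given in the sources used here, so reads from overlapping genes cannot be separated. Ctcf shares exons with Agrp and Gm5914, which held at most 38 reads in any sample.

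The counts were analysed in R 4.3.3. Every comparison used only the samples of its groups, scaled by TMM, after filterByExpr (minimum count 10). The edgeR 4.0.16 quasi-likelihood test was used, and p-values were adjusted across all genes by the Benjamini-Hochberg method. SEs come from the fold change and the F statistic. The fold limits of 0.7 and 1.3 were taken from the study's methods; its first version of DESeq was replaced. Shown CPM values use TMM scaling over all 16 samples. DESeq2 1.42.0 served as an alternative. Ratios used counts with a prior of 0.5 (scipy 1.17.1). Positions and exon lengths came from GENCODE M21 and promoters from RefSeq (GRCm38.p6). Fits were tested on simulated data with planted changes larger than any genotype or sex difference of the members. The simulation does not show how well differences that small are recovered. Replicates are separate samples, and p-values measure the spread between them. In the edgeR fits the spread of each gene was moderated across all genes tested, so its p-value, SE and interval also rest on other genes. The pairs of samples within a group differed by more than sampling noise (chi-square over its degrees of freedom, 2.11 to 11.2). The female brain pairs differed most, at 10.3 in Wiz +/+ and 11.2 in Wiz MommeD30/+, and the other pairs ran from 2.11 to 5.05.

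All 10 genes, Wiz, the up to 2 genes per list and direction with the largest tissue change among those called, and the 3 nearest genes of Ctcf and Rad21 were named. The rule for the members used no measured value, but the members and lists were proposed with earlier results of these data known, and no independent support is drawn from them. One further marker list is not reported here.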

Additional observations from a re-analysis of the deposited data

How the results depend on the processing

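The 0 calls for genotype and sex and the 4 calls for tissue in each genotype were unaltered by DESeq2 size factors, the DESeq2 Wald test, no filter on low counts and leaving out any single replicate. With the adjusted p alone, the calls became 1 for genotype in cerebellum, 9 and 9 for tissue and 7 for sex. With total counts alone they became 8 and 8 for tissue, and Stag2 reversed to -0.184 in Wiz +/+ and -0.170 in Wiz MommeD30/+, where the scaling shifts all genes. The ratios passed in 5 of 5 in the 12 males, in all 16 samples and without any single sample, and in 0 of 5 in Wiz +/+ males alone, where 3 against 3 cannot give an exact permutation p under 0.1. With no filter, Smc1a for genotype in cerebellum reversed to -0.000438. Whether the replicate numbers pair the samples is not known. Between the genotypes, residuals of same-numbered samples correlated at -0.098 (male brain), -0.064 (female brain) and -0.047 (cerebellum), which gave no sign of pairing. With so few samples a group these values cannot exclude pairing. The female value mirrors that of other-numbered samples (+0.064) by construction. Pairing between the sexes was not checked. The replicate block altered no call with the fold limits. For sex, it left 0 of 10 genes with an adjusted p of at most 0.05, where DESeq2 gave 10, and single samples left out gave 4 to 8. The mean of same-numbered differences in the ratios equals the difference of the means by construction.

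Some small differences for genotype changed sign when 1 replicate was left out. In male brain these were Ctcf (-0.0042 to 0.0300), Smc1a (-0.0089 to 0.0464), Stag2 (-0.0167 to 0.0412), Pds5a (-0.0181 to 0.0419) and Pds5b (-0.0196 to 0.0133). The others were Smc1a in female brain (-0.0027 to 0.1119), Rad21 in brains of both sexes (-0.0084 to 0.0248), Smc1a (-0.0085 to 0.0217) and Pds5a (-0.0398 to 0.0474) in cerebellum, and Pds5b for genotype by sex (-0.0350 to 0.0091). Stag2 for tissue in Wiz +/+ ran from -0.0077 to 0.0707. Members not listed here kept their direction for genotype, tissue and sex in the alternatives run. The interaction terms were less stable: members above 0 numbered 6 for genotype by tissue (9 with DESeq2 size factors or its Wald test, 4 with no filter, 4 to 9 with 1 sample left out) and 8 for genotype by sex (6 to 10 with 1 sample left out), with 0 calls throughout. With 2 or 3 samples a group, the spread between samples is known poorly.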

Other observations

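One germline cohesin gene outside the 10, chosen after its values were seen, differed with genotype in the embryo. Stag3, a meiotic counterpart of Stag1 and Stag2, stood at 15.7 to 17.6 CPM in male Wiz +/+ brains and 12.1 to 14.3 CPM in male Wiz MommeD30/+ brains. In female brains it stood at 15.03 to 16.52 CPM and 9.84 to 11.6 CPM. The groups did not overlap in either sex, and over both sexes the log2 fold change was -0.42 (SE 0.0715, edgeR adjusted p = 0.0157), inside the fold limits. In male brain alone it was -0.32 (edgeR adjusted p = 0.200). In female brain alone it was -0.56 (edgeR adjusted p = 0.472), which is beyond the lower fold limit. The study, which used DESeq, listed Stag3 among the genes significantly lower in female Wiz MommeD30/+ brains. In cerebellum, where Stag3 was lower, at 3.11 to 3.57 CPM, the difference was +0.05 (edgeR adjusted p = 0.864). Of the 3 germline genes tested, 0 passed the adjusted p for genotype by tissue.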
